A study of Arabidopsis thaliana with 20 samples.

Results

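Roots of Arabidopsis thaliana were compared under shoots that differed in 1 brassinosteroid synthesis gene, with the root genotype held as an additive term. All 20 libraries of the series entered the comparison, 10 from roots under a cpd shoot and 10 from roots under a Col-0 wild-type (WT) shoot, and 20862 of 32833 genes passed the filter on low counts. The account turns on the 545 genes whose level changed alike on both roots. The seedlings were grafts in all 4 combinations of shoot and root, written with the shoot before the slash (WT/WT, cpd/WT, WT/cpd, cpd/cpd). There were 5 replicates of each combination, every replicate a pool of 3 whole roots. WT/WT and WT/cpd share a WT shoot, and cpd/WT and cpd/cpd share a shoot of the cpd mutant. The word Grafted stands in the titles of the other groups but not of cpd/cpd, although the series design names grafting for the 4 combinations. If cpd/cpd differed in grafting, that cannot be told apart from genotype in the values on a cpd root.

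Brassinosteroids are plant steroid hormones made from sterols by a chain of cytochrome P450 enzymes, of which CPD is a member, and cpd mutants are dwarfs with small dark leaves. The hormones are perceived at the cell surface by the receptor kinase BRI1 and act close to where they are made, whereas sugars, amino acids and other hormones travel between shoot and root in the phloem and xylem. Grafting gives root and shoot different genotypes. The shoot contrast therefore addresses what a brassinosteroid-deficient shoot changes in a root that does or does not make its own hormone.

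The shoots were not sequenced, so their genotype rests on the labels. The mutated gene followed the root and not the shoot: CPD (AT5G05690) stood on a WT root at 45.5 ± 4.93 CPM (counts scaled to a library of 1000000) under a WT shoot and 40.9 ± 4.54 under a cpd shoot, and on a cpd root at 4 ± 0.751 and 2.84 ± 0.63 (SD, n = 5 in each group here and below). Total counts ran from 13417029 to 29662209 under a WT shoot (median 22849896) and from 22040458 to 32337043 under a cpd shoot (median 24339166.5), so the WT-shoot libraries reached lower depths. The libraries least like the others of their group were replicate 4 of WT/WT, replicate 4 of cpd/cpd, and replicate 2 of WT/cpd and of cpd/WT. Leaving these out gave 496 called falls and 328 alike falls, against the 303 and 195 below. Leaving out WT/WT replicate 4 alone gave 512 and 324, and cpd/cpd replicate 4 alone 296 alike falls, and called rises numbered 340 and 338 without WT/WT replicate 3 or 5, against 512.

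Averaged over both roots, 815 genes were called, 3.91% of those tested, with 512 higher (2.45%) and 303 lower (1.45%) under a cpd shoot. A call is an adjusted p under 0.05 by edgeR's quasi-likelihood F test after Benjamini-Hochberg adjustment across tested genes, and every adjusted p below comes from that test. A gene counted as changed alike when it was called on average, its log2 fold changes on the 2 roots had the same sign with the smaller at least 0.5 of the larger, and the shoot by root interaction was not called. This held for 545 genes (2.61%), 350 higher (1.68%) and 195 lower (0.935%). Of the other 270 called genes each had a smaller change under 0.5 of the larger, and 27 of these also had a called interaction. Just outside the limit lay OEP6 and PP2-B5, both with a ratio of 0.499, and just inside it CLE5 (0.501) and AT2G34317 (0.502).

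Most changes were small. The median size was 0.43 on the log2 scale among genes that were alike and higher and 0.41 among those alike and lower, and 56 alike genes passed 1 on the log2 scale, 35 higher and 21 lower, where 0.441% of tested genes were called and passed it. Of the 545, 280 were also called on the WT root taken alone, 148 on the cpd root alone and 92 on each. Over all tested genes, 1900 (9.11%) were called on a WT root, mostly higher (6.21% of those tested), and 973 (4.66%) on a cpd root, mostly lower (3.25%), in contrasts that share no library. The numbers on a WT root fell to 893, 1106 and 1206 without WT/WT replicate 1, WT/WT replicate 3 or cpd/WT replicate 4. On a cpd root they were 455 and 569 without WT/cpd replicate 1 or 3, and 485, 449 and 520 without cpd/cpd replicate 1, 3 or 5. The order turned without the least typical libraries, with 2488 on a WT root and 2618 on a cpd root, and with limma sample weights, with 3789 and 4346. The 95 genes (0.455%) called on each root in the same direction were 5% of the first list and 9.76% of the second, and 29 of them (0.139%) were lower. Another 104 genes (0.499%) were called in opposite directions, 95 of them higher on a WT root and lower on a cpd root. Across all tested genes, which are not independent replicates, the log2 fold changes on the 2 roots had a correlation of -0.17.

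**Figure D1:**
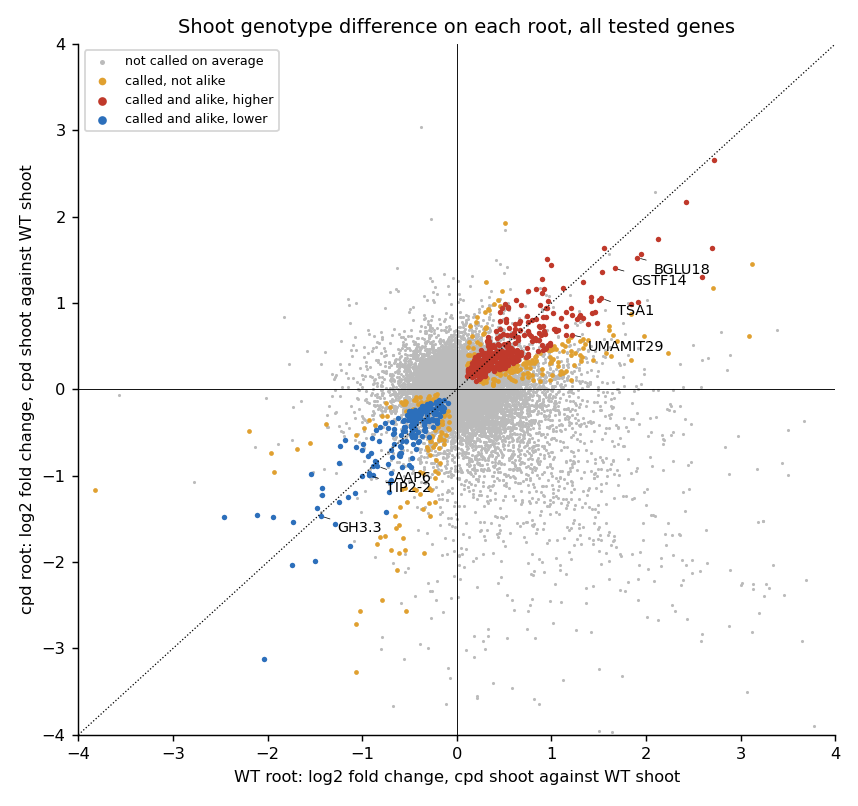
Shoot genotype difference (log2 fold change, cpd shoot against WT shoot) on a WT root (horizontal axis) and on a cpd root (vertical axis), with 1 point for each tested gene and 13 genes outside the plotted range of 4 on the log2 scale. The 350 genes alike and higher (red) and the 195 alike and lower (blue) lie by construction near the dotted line of equal change, while the grey cloud of uncalled genes extends to the lower right.

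The upstream sequences of 6 genes are shown. TSA1 and AT4G25090 were the named rises with the smallest adjusted p, and AT1G33340 the named fall with the smallest adjusted p after AT2G38600. BGLU18, GH3.3 and TIP2-2 were chosen after their values were seen. The window of AT2G38600 lies in another annotated gene and is not shown. Each runs 5′ to 3′ over the 250 bases before the annotated gene start in the RefSeq assembly TAIR10.1, in lower case, with matches to any searched motif on either strand in capitals. The windows are chr1:19520353-19520602, plus strand for TSA1, chr1:19514739-19514988, plus strand for its neighbour BGLU18, chr4:12883806-12884055, minus strand for AT4G25090, chr1:12086946-12087195, plus strand for AT1G33340, chr2:9866563-9866812, minus strand for GH3.3, and chr4:9698690-9698939, plus strand for TIP2-2.
TSA1: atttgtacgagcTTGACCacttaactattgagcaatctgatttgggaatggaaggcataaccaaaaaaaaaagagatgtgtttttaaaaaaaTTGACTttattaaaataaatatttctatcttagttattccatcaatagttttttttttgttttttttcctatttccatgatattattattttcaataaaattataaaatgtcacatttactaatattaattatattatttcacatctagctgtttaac
BGLU18: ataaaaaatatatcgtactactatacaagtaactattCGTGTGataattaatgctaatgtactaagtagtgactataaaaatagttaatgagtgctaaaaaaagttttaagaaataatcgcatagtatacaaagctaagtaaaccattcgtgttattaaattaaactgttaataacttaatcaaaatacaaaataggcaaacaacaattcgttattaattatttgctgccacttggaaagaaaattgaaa
AT4G25090: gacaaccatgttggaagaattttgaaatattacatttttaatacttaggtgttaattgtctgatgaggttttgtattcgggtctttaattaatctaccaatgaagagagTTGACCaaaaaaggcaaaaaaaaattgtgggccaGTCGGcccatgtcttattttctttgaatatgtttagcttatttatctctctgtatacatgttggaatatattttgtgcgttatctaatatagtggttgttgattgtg
AT1G33340: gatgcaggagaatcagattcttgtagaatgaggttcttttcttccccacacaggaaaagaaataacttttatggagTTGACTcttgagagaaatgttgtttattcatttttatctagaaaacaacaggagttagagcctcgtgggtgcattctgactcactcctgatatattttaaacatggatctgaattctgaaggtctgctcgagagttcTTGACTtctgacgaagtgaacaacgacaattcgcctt
GH3.3: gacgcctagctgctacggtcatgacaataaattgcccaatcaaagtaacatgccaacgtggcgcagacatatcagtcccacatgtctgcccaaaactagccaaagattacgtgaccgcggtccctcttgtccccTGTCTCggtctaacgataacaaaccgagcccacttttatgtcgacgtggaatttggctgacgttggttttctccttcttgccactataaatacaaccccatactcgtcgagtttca
TIP2-2: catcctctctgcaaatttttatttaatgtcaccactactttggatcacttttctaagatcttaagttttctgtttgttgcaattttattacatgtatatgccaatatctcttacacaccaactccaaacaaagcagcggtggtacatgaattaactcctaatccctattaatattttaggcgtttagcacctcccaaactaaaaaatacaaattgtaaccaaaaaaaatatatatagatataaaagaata

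In these windows TSA1 and AT1G33340 each held 2 W-boxes, AT4G25090 held 1 W-box and 1 dehydration response element, BGLU18 1 brassinosteroid response element (CGTGTG) and GH3.3 1 auxin response element (TGTCTC). The TIP2-2 window held no searched letters. The search covered the W-box (TTGACC or TTGACT), the CAMTA box (CGCGTT), the G-box (CACGTG), the evening element (AAATATCT), the auxin response element (TGTCTC or TGTCGG), the dehydration response element (CCGAC), the brassinosteroid response element (CGTGCG or CGTGTG) and the I-box (GATAAG). The letters TGTCGG contain the reverse complement of CCGAC, so these motifs can overlap. Over 348 alike higher, 195 alike lower and 20786 tested genes, W-boxes stood in 23.6%, 32.3% and 28.6% of windows, and auxin response elements in 12.6%, 15.4% and 14.8%. Brassinosteroid response elements stood in 6.9%, 6.15% and 7.02%, and G-boxes in 7.47%, 5.13% and 7.2%. The evening element was in 7.47%, 3.08% and 4.83%, the I-box in 16.4%, 14.4% and 12.2%, the dehydration response element in 9.2%, 9.23% and 12.7%, and the CAMTA box in 1.44%, 4.62% and 2.79%. A match is a description of letters, not a shown binding site.

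The neighbouring genes BGLU18 (AT1G52400) and TSA1 (AT1G52410) were among the 12 largest rises by the naming rule. That rule took alike genes whose mean log2 CPM reached 2 and whose shoot groups were apart on each root. Some alike genes outside it rose more, such as TI2 (log2 2.31) and RBCS2B (log2 1.76). TSA1, which encodes a protein of ER bodies, the beta-glucosidase stores of Brassicales cells, had the smallest adjusted p of the comparison. It stood between 21.6 and 30.4 CPM in WT/WT and between 27.8 and 55.7 in WT/cpd, against 57.6 to 88.2 in cpd/WT and 69.8 to 94.3 in cpd/cpd. No WT-shoot library reached a cpd-shoot library. TSA1 rose 2.44-fold (log2 1.29 ± 0.12 SE, adjusted p = 1.47e-05), with log2 fold changes of 1.53 ± 0.16 on a WT root and 1.06 ± 0.15 on a cpd root. BGLU18, a beta-glucosidase known to release abscisic acid from its glucose ester, had 2.5 to 4.29 CPM in WT/WT and 8.98 to 15.3 in cpd/WT, and 2.91 to 10.7 in WT/cpd and 11.7 to 23.4 in cpd/cpd. The shoot groups were apart on each root, although the highest WT/cpd library exceeded the lowest cpd/WT library. Its 3.26-fold rise (log2 1.71 ± 0.20, adjusted p = 0.000106) was the largest among alike genes whose mean log2 CPM reached 2 and whose shoot groups were apart on each root.

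The other genes of ER bodies were read as a list of 14 added after values had been seen, so its count is a description. BGLU18, TSA1, PBP1, JAL31 and PYK10 rose alike, against a background of 1.68% of tested genes alike and higher. No member was called lower, and the list median was 0.28 against 0.01 over all tested genes. PBP1 (AT3G16420), a lectin that binds the beta-glucosidase PYK10, stood between 1750 and 2420 CPM under a WT shoot and between 2511 and 3429 under a cpd shoot, without overlap (1.34-fold, log2 0.42 ± 0.06, adjusted p = 0.000629). Its chromosomal neighbour JAL31 (AT3G16430), also a jacalin-related lectin, rose 1.24-fold (adjusted p = 0.0244). PYK10 (AT3G09260), the main beta-glucosidase of root ER bodies, went from 11221 ± 725 to 13687 ± 886 CPM on a WT root and from 9914 ± 1638 to 11759 ± 978 on a cpd root (1.2-fold, adjusted p = 0.0459). PYK10 lost its call without any 1 of 17 libraries, with an adjusted p of up to 0.0787 without WT/WT replicate 5. Neither NAI1, a regulator of ER bodies, nor NAI2, a structural protein of theirs, was called (log2 0.06 ± 0.07 and 0.12 ± 0.07).

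**Figure D2:**
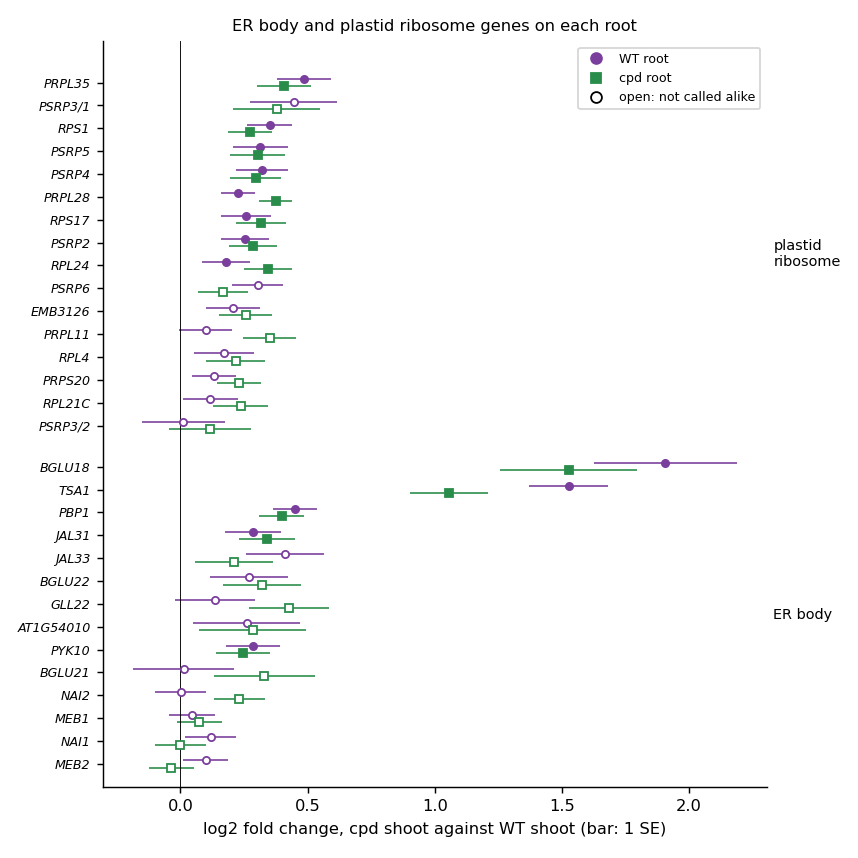
Log2 fold change (cpd shoot against WT shoot, bar 1 SE) of 16 plastid ribosomal and 14 ER body genes on a WT root (circles) and on a cpd root (squares), filled where the gene changed alike. BGLU18 and TSA1 lie above 1 on each root and the plastid ribosomal genes between 0.01 and 0.49.

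GSTF14 (AT1G49860), a phi-class glutathione S-transferase, had 26.1 to 50.7 CPM in WT/WT, 26.3 to 64.7 in WT/cpd, 81.9 to 167 in cpd/WT and 74.3 to 129 in cpd/cpd. The 10 cpd-shoot libraries lay above the 10 WT-shoot libraries. It rose 2.9-fold (log2 1.54 ± 0.17, adjusted p = 0.000101). GRP9 (AT2G05440), which encodes a glycine-rich protein, was a highly expressed gene that rose 1.7-fold, from 4047 ± 509 to 6841 ± 680 CPM on a WT root and from 3688 ± 498 to 6327 ± 1144 on a cpd root (log2 0.77 ± 0.09, adjusted p = 0.000106). Its shoot groups did not overlap over the 20 libraries either.

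Other rises lay between 1.63-fold and 2.05-fold. UMAMIT29 (AT4G01430), of a family of amino acid exporters, stood between 7.96 and 13.6 CPM under a WT shoot and between 14.6 and 26.9 under a cpd shoot (1.89-fold, adjusted p = 0.000365). The kinase gene AT4G14780 rose 2.05-fold (adjusted p = 0.000572), the bZIP gene AT1G68880 rose 1.77-fold (adjusted p = 0.00217) and CYP702A5 (AT4G15393), a cytochrome P450 gene, 1.64-fold (adjusted p = 0.000101). AT4G25090, annotated as riboflavin synthase-like, went from 30.1 ± 4.15 to 47.7 ± 4.26 CPM on a WT root and from 23.1 ± 4.19 to 40.0 ± 2.31 on a cpd root (1.66-fold, adjusted p = 7.64e-05), and AT4G14060, annotated as a polyketide cyclase or lipid transport protein, rose 1.63-fold (adjusted p = 0.00031). Each of these genes had shoot groups that did not overlap on either root, which the rule for naming them required. Of all tested genes, 41 were higher without such overlap (0.197%) and 23 lower (0.11%).

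A cluster on chromosome 2 held several of the rises. AT2G43535 and AT2G43550 encode scorpion toxin-like knottins, small cysteine-rich proteins. AT2G43535 stood between 87.2 and 152 CPM under a WT shoot and between 170 and 350 under a cpd shoot, without overlap (1.99-fold, log2 0.99 ± 0.12, adjusted p = 0.000106). AT2G43550 rose 1.68-fold (adjusted p = 0.00198). Their neighbours TI2 (AT2G43520, a trypsin inhibitor gene, log2 2.31 ± 0.47), AT2G43530 (0.70 ± 0.16) and AT2G43560 (0.38 ± 0.09), chosen after values were seen, also rose alike (adjusted p = 0.00796, 0.017 and 0.0234). TI2 stood at 0 to 0.291 CPM under a WT shoot and 0.149 to 1.21 under a cpd shoot, so its value rests on few reads. Counts of similar copies in the knottin genes may be uncertain.

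The lipid transfer protein genes AZI1 (AT4G12470), EARLI1 (AT4G12480) and AT4G12500, a second cluster chosen after values were seen, rose 2.01-fold, 2.22-fold and 2.73-fold (adjusted p = 0.0194, 0.00211 and 0.00217). AZI1 acts in systemic defence priming. EARLI1 had 48.7 ± 16.1 CPM in WT/WT, 106 ± 43.6 in cpd/WT, 44.4 ± 6.5 in WT/cpd while cpd/cpd had 100.2 ± 13.1, and its lowest cpd-shoot library, at 35.0 CPM, lay within the WT-shoot range. These genes are similar copies, so the split of reads between them is uncertain. Neighbours over the genome were counted among tested genes only, so untested genes could lie between them. By this count 9.2% of alike higher genes lay beside an alike higher gene, as did 3.29% of all tested genes. Of alike lower genes 9.23% lay beside another alike lower gene, as did 1.86% of all tested genes. The neighbours counted 18 pairs of rises and 9 pairs of falls.

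**Figure D3:**
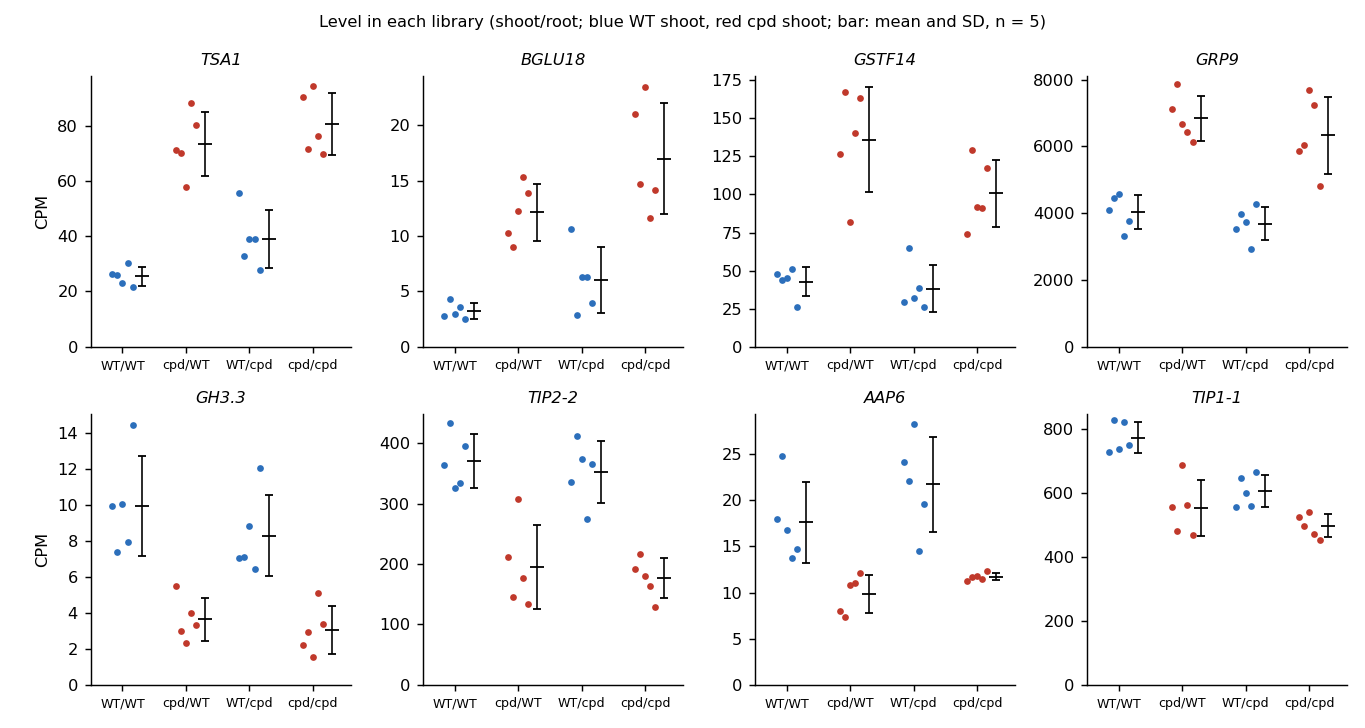
CPM of 4 genes that rose (top) and 4 that fell (bottom) in each library, by graft written shoot/root, with the WT shoot in blue, the cpd shoot in red and the mean and SD of 5 replicates as bars. In each panel the red and blue libraries of the same root do not overlap, which the rule for naming these genes required.

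Among the alike falls whose mean log2 CPM reached 2 and whose shoot groups were apart on each root, GH3.3, a gene of auxin conjugation, had the largest change. GH3 enzymes join auxin to amino acids, which removes active hormone, and several are themselves induced by auxin. GH3.3 (AT2G23170) had 7.41 to 14.4 CPM in WT/WT and 6.46 to 12.1 in WT/cpd, against 2.35 to 5.52 in cpd/WT and 1.56 to 5.11 in cpd/cpd. No cpd-shoot library reached a WT-shoot library, and the gene fell 2.74-fold, by the same amount on each root (log2 -1.44 ± 0.28 and -1.47 ± 0.28, adjusted p of the average 0.000371). GH3.1 (AT2G14960) fell 1.93-fold (log2 -0.95 ± 0.15, adjusted p = 0.00115) and GH3.5 (AT4G27260) 1.49-fold (log2 -0.57 ± 0.09, adjusted p = 0.00127). GH3.2 (AT4G37390) fell on each root but more on a cpd root (log2 -1.79 ± 0.18 against -0.84 ± 0.18, interaction adjusted p = 0.027), and so was not alike.

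Of 7 tested members of the conjugation list 4 were called lower and 0 higher, against 1.45% of all tested genes called lower, and the list median was -0.57 against 0.01. GH3.6 (log2 -0.35 ± 0.13, adjusted p = 0.131) and GH3.17 (-0.16 ± 0.07, adjusted p = 0.177) were not called, nor was AT1G14130, listed with them but without a GH3 name (-0.03 ± 0.11). The Aux/IAA repressors, which auxin also induces, had 0 of 10 members called (3.91% of all tested genes) and a median of -0.19. AFB2 (AT3G26810), an auxin receptor gene chosen after its values were seen, fell 1.13-fold with little spread, from 82.2 ± 2.2 to 72.7 ± 1.21 CPM on a WT root and from 80.6 ± 4.84 to 71.1 ± 1.4 on a cpd root (adjusted p = 0.00452). LBD16 (AT2G42430), a regulator of lateral root initiation, fell 1.58-fold (adjusted p = 0.0102), and ABCB4 (AT2G47000), an auxin transporter gene, 1.26-fold (adjusted p = 0.0175).

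Water channels of the vacuole were also among the falls. TIP2-2 (AT4G17340) went from 370 ± 44.7 to 195 ± 69.9 CPM on a WT root and from 352 ± 51.4 to 176 ± 32.8 on a cpd root (1.95-fold lower, log2 -0.96 ± 0.13, adjusted p = 0.000371). The shoot groups were apart on each root, which the naming rule required. TIP2-3 (AT5G47450) fell 2.07-fold (log2 -1.05 ± 0.20, adjusted p = 0.00612) and TIP1-1 (AT2G36830) 1.31-fold (log2 -0.39 ± 0.07, adjusted p = 0.00331), while no call was made for TIP1-2, TIP2-1 or TIP4-1 (log2 -0.03, 0.02 and 0.04). Thus 3 of 6 tested vacuolar aquaporins were called lower, against 1.45% of all tested genes, and 0 higher, and each of the 3 changed alike.

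Plasma membrane aquaporins moved both ways, with 4 of 13 called lower and 1 higher, against 1.45% and 2.45% of all tested genes. PIP2-3 (AT2G37180) fell 1.55-fold (adjusted p = 0.00508), PIP1-1 (AT3G61430) 1.35-fold (adjusted p = 0.0176) and PIP2-2 (AT2G37170) 1.2-fold (adjusted p = 0.0386), while PIP2-5 (AT3G54820) rose 1.72-fold (adjusted p = 0.00344). PIP1-2 (log2 -0.32, adjusted p = 0.0461) fell without meeting the likeness limit. PIP2-2 and PIP2-3 are neighbouring near-identical copies, so their shares of the reads are uncertain, and PIP2-2 lost its call without any 1 of 13 libraries (adjusted p up to 0.071 without WT/WT replicate 2). Without WT/WT replicate 1 the number called lower was 2.

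**Figure D4:**
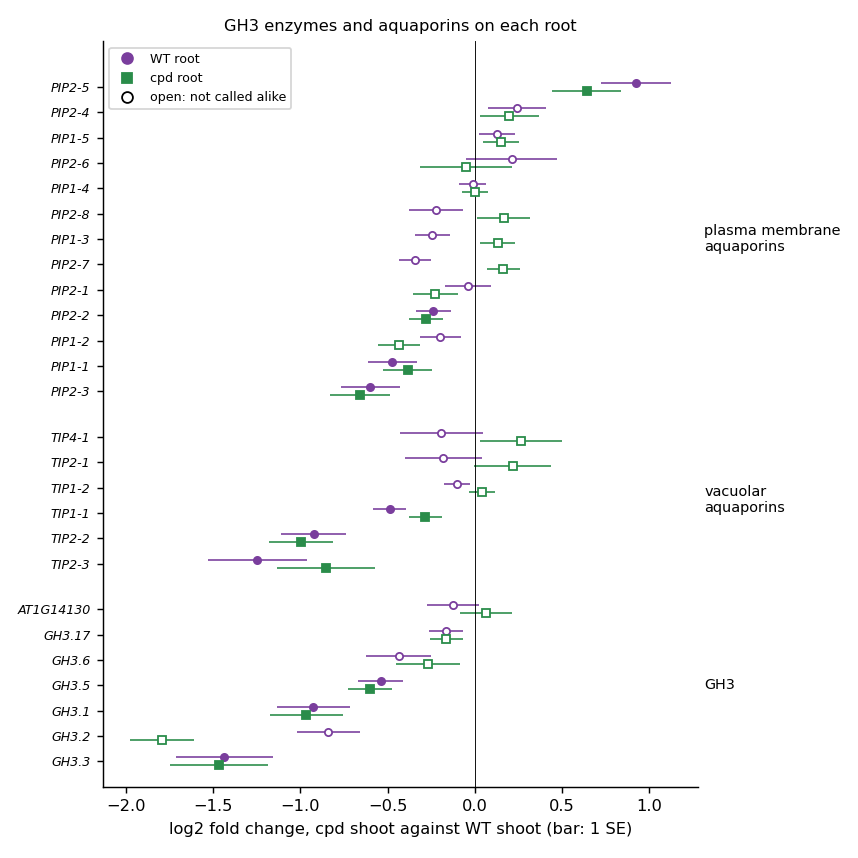
Log2 fold change (cpd shoot against WT shoot, bar 1 SE) on a WT root (circles) and on a cpd root (squares) for 7 genes of the auxin conjugation list, 6 vacuolar and 13 plasma membrane aquaporins, filled where the gene changed alike. GH3.3, GH3.1, GH3.5, TIP2-2, TIP2-3 and TIP1-1 lie below 0 on each root, and PIP2-5 lies above.

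Other falls included AAP6 (AT5G49630), an amino acid permease gene, which had 13.8 to 24.8 CPM in WT/WT and 14.5 to 28.3 in WT/cpd, against 7.33 to 12.2 in cpd/WT and 11.3 to 12.4 in cpd/cpd. The shoot groups did not overlap over the 20 libraries (1.82-fold, log2 -0.86 ± 0.12, adjusted p = 0.000494). AT2G38600, annotated as an acid phosphatase of the HAD superfamily, fell 2.5-fold from 13.8 ± 1.79 to 5.14 ± 1.54 CPM on a WT root and from 13.1 ± 5.01 to 5.67 ± 0.853 on a cpd root (adjusted p = 0.000168). AT1G33340, annotated as an ENTH/ANTH/VHS protein, a class of vesicle coat adaptors, fell from 10.9 to 5.42 CPM on a WT root and from 10.1 to 5.04 on a cpd root (adjusted p = 0.000194). The TRAF-like gene AT4G01390 fell 2.29-fold (adjusted p = 0.00318), and its neighbour AT4G01380, chosen after its values were seen, by 1.27 on the log2 scale. AT4G01390 shares 100 bases with another gene on the other strand.

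Smaller falls with separate shoot groups on each root were those of the glycosyltransferase gene AT2G03360 (1.78-fold, adjusted p = 0.00103), the RNA-binding protein gene AT1G72800 (1.61-fold, adjusted p = 0.003), AT1G32090, annotated as the dehydration-responsive ERD4 (1.43-fold, adjusted p = 0.00198), AT1G10380, annotated as a membrane lipoprotein (1.35-fold, adjusted p = 0.00714), and CRF2 (AT4G23750), a cytokinin response factor gene (1.33-fold, adjusted p = 0.00198). AT1G72800 shares 624 bases with AT1G72810 on the other strand, which had 14148 counts over the 20 libraries against 2240 of its own. Since no source used here states the strand setting of the counting, the reads of the pair cannot be told apart. Of 13 tested genes of cytokinin synthesis, export and breakdown 2 were called, both lower and both cytokinin oxidases, against 1.45% of all tested genes called lower. CKX1 (AT2G41510) fell 1.48-fold (adjusted p = 0.00927) and CKX3 (AT5G56970) 1.49-fold (adjusted p = 0.0482). CKX4, CKX5, CKX6 and CKX7 were not called (log2 0.06, -0.29, -0.41 and 0.07). CKX3 lost its call without any 1 of 14 libraries (adjusted p up to 0.0894 without WT/WT replicate 2), and CKX1 overlaps 2057 bases of a gene on the other strand with 209 counts.

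The largest fitted change was that of AT1G55230, chosen after its values were seen, which is annotated with the domain DUF716. It had 4 to 103 raw counts per library in WT/WT and 5 to 32 in WT/cpd, against 0 to 3 in cpd/WT and 0 to 2 in cpd/cpd. The groups did not overlap on either root, but the counts are too few for a fold change free of the prior count (adjusted p = 0.000403). Its neighbour AT1G55240, of the same annotation, went from 28.6 ± 7.36 to 8.82 ± 0.963 CPM on a WT root and from 14.9 ± 3.27 to 9.24 ± 1.81 on a cpd root, and fell more on a WT root than on a cpd root (interaction adjusted p = 0.0206). The signal peptide genes CLE5 (AT2G31083) and CLE6 (AT2G31085), neighbours on chromosome 2 and also chosen after their values were seen, fell 1.83-fold and 1.82-fold (adjusted p = 0.00392 and 0.00285). CLE5 and CLE6 are known in Arabidopsis as regulators of leaf shape.

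Of the 50 gene lists, 23 had no called member and 9 had at least 3. Starch breakdown had 4 of 15 members called higher, against 2.45% of all tested genes, and 0 lower, each alike, with a median of 0.18. On a WT root 5 were called higher (6.21% of all tested genes) and on a cpd root 1 (1.42%), with medians of 0.30 and 0.10. A called interaction was found for 1 member (7.73% of all tested genes). The difference between roots was not tested for the list. AMY3 (AT1G69830), a plastid alpha-amylase, stood between 37.1 and 49.3 CPM under a WT shoot and between 53.1 and 73.2 under a cpd shoot, without overlap (1.33-fold, adjusted p = 0.000898). The glucan phosphorylase genes PHS2 (AT3G46970) and PHS1 (AT3G29320) rose 1.36-fold and 1.26-fold (adjusted p = 0.00238 and 0.0229), and the glucan phosphatase gene SEX4 (AT3G52180) 1.37-fold (adjusted p = 0.00322). Starch synthesis had 2 of 16 higher, with 4 without WT/WT replicate 4 and 1 without WT/WT replicate 1: ADG1 (AT5G48300), a subunit of ADP-glucose pyrophosphorylase, rose 1.27-fold (adjusted p = 0.0147) and the starch synthase gene SS1 (AT5G24300) 1.15-fold (adjusted p = 0.0428). SS1 lost its call without any 1 of 14 libraries (adjusted p up to 0.0803 without WT/WT replicate 5).

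Among 16 carbon starvation markers 1 was called, against 3.91% of all tested genes. This was DIN6 (AT3G47340), an asparagine synthetase gene that darkness and low sugar induce. It went from 60.0 ± 24.8 to 134 ± 10.3 CPM on a WT root and from 108 ± 39.2 to 167 ± 40.3 on a cpd root (1.86-fold, adjusted p = 0.0117). The list median was -0.04.

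Glucosinolates are sulfur-rich defence compounds of the Brassicales. Of 11 tested genes of the aliphatic branch 3 were called higher and of 19 of the indole branch 4, each alike, with none lower, against 2.45% of all tested genes called higher. MAM1 (AT5G23010) and MAM3 (AT5G23020), neighbouring genes for methionine chain elongation, rose 1.93-fold and 1.6-fold (adjusted p = 0.015 and 0.0102), and AT2G31790, a UDP-glycosyltransferase gene, 1.66-fold (adjusted p = 0.0148). In the indole branch TSB1 (AT5G54810), a tryptophan synthase subunit, rose 1.2-fold (adjusted p = 0.00312), GSTF9 (AT2G30860) 1.32-fold (adjusted p = 0.0117), IGMT5 (AT1G76790), a methyltransferase gene, 1.35-fold (adjusted p = 0.0145) and CYP83B1 (AT4G31500) 1.29-fold (adjusted p = 0.0168). The branches differed by root at the list level, with aliphatic medians of 0.79 on a WT root and 0.19 on a cpd root, and indole medians of 0.30 and -0.01, and the difference between roots was not tested for the lists. Of the aliphatic genes 7 were called higher on a WT root (6.21% of all tested genes) and 0 on a cpd root (1.42%). A called interaction was found for 1 of them. Of the indole genes 7 were higher on a WT root, 1 was higher and 3 were lower on a cpd root, and 5 had a called interaction (7.73% of all tested genes). Without WT/cpd replicate 1 the aliphatic branch had 7 called members.

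In the sulfur list 2 of 18 members rose, against 2.45% of all tested genes: the sulfate transporter genes SULTR2;1 (AT5G10180, 1.59-fold, adjusted p = 0.0139) and SULTR1;1 (AT4G08620, 1.75-fold, adjusted p = 0.0448). SULTR1;1 lost its call without any 1 of 16 libraries (adjusted p up to 0.0816 without WT/WT replicate 3), which left 1 called member.

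Plastid ribosomal proteins, a list of 16 added after values had been seen, had 8 members called higher, each alike, against 1.68% of all tested genes alike and higher, and 16 of 16 with a positive log2 fold change on each root. The list median was 0.27. RPL12-A (AT3G27830), a plastid ribosomal gene outside that list, was chosen after its values were seen. It stood between 28.6 and 37.0 CPM under a WT shoot and between 37.5 and 48.5 under a cpd shoot, without overlap (1.3-fold, adjusted p = 0.000572). PRPL28 (AT2G33450, 1.23-fold, adjusted p = 0.00192) and PRPL35 (AT2G24090, 1.36-fold, adjusted p = 0.00211) were also without overlap, and PRPL28 shares 513 bases with a gene of 632 counts on the other strand, against 12139 of its own. Plastid-encoded genes took 0.0662% to 0.0862% of counts in WT/WT, 0.0482% to 0.0674% in cpd/WT, 0.0583% to 0.0706% in WT/cpd and 0.0558% to 0.0884% in cpd/cpd. The list's called number was 6 without WT/WT replicate 5 and 11 without cpd/WT replicate 3.

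Nuclear photosynthesis genes, used here as the marker of shoot tissue, had 11 of 36 members called higher (2.45% of all tested genes) and 0 lower, of which 5 were alike. On a WT root 22 were called higher (6.21% of all tested genes) and the median was 0.72, while on a cpd root 0 were (1.42%) and the median was 0.22. The difference between roots was called for 4 members, 11.1% of the list against 7.73% of all tested genes. Alike were the Rubisco small subunit genes RBCS2B (AT5G38420, 3.39-fold, adjusted p = 0.0108) and RBCS1B (AT5G38430, 2.26-fold, adjusted p = 0.041), neighbours whose reads may be shared, LHCB6 (AT1G15820, 1.32-fold, adjusted p = 0.0378), PSAO (AT1G08380, 1.36-fold, adjusted p = 0.0436) and PSAD-1 (log2 0.40, adjusted p = 0.0436). CHLI1 (AT4G18480), of the magnesium chelatase that makes chlorophyll, was the 1 alike member of 17 genes of greening (1.36-fold, adjusted p = 0.00192). Of all tested genes 1.68% were alike and higher.

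The photosynthesis list summed to 1752 to 3024 CPM in WT/WT, 2989 to 5098 in cpd/WT, 2327 to 4633 in WT/cpd and 3057 to 5589 in cpd/cpd. Of 7 genes of stomata and shoot cuticle 3 passed the filter, 0 were called, and MUTE had 0 counts in the 20 libraries and SPCH, FAMA and MYB60 at most 2, 4 and 11. The other members had reads: EPFL9, a stomatal signal peptide gene, reached 58 counts, CUT1 lay between 26 and 136 and CER1 between 23 and 240, both genes of cuticular wax. The list summed to 4.54 to 9.49 CPM in WT/WT, 3.75 to 8.15 in cpd/WT, 5.57 to 11.7 in WT/cpd and, for cpd/cpd, 6.72 to 14.4. Their part in the rises of plastid, starch and glucosinolate genes was not tested. Without WT/WT replicate 1 the photosynthesis list had 4 called members, without WT/cpd replicate 3 it had 17, and without the least typical library of each group 3. LHCB6 shares 358 and 103 bases with genes of 28 and 26893 counts on the other strand. LHCB6, RBCS1B and PSAO lost their calls without any 1 of 11, 11 and 15 libraries (adjusted p up to 0.0765, 0.0758 and 0.0885, each without WT/WT replicate 5). In whole roots, fewer cells of a type and less RNA per cell cannot be told apart, here and for the other tissue-bound genes.

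Xylem and secondary wall markers had 14 of 14 members with a positive log2 fold change on each root and a median of 0.36. Of these 2 were called higher, both alike, against 2.45% of all tested genes. GAUT12 (AT5G54690), of xylan synthesis, rose 1.36-fold (adjusted p = 0.0246) and the laccase gene LAC4 (AT2G38080) 1.42-fold (adjusted p = 0.0325). The cellulose synthases of secondary walls CESA4, CESA7 and CESA8 were higher by 0.32 ± 0.11, 0.28 ± 0.10 and 0.32 ± 0.09 on the log2 scale without passing the test. Single libraries moved this count, to 10 without WT/WT replicate 4, to 8 without the least typical library of each group and to 1 without WT/WT replicate 1. LAC4 lost its call without any 1 of 7 libraries, with an adjusted p of up to 0.0623 without WT/WT replicate 5. The summed level ran from 230 to 468 CPM in WT/WT, 374 to 538 in cpd/WT, 378 to 425 in WT/cpd and 441 to 583 in cpd/cpd. Phloem, Casparian strip and root hair markers had 0 of 9, 0 of 11 and 0 of 14 members called. With 3.91% of all tested genes called, these counts do not set the lists apart from other genes. On a WT root 4 root hair markers were called higher (6.21% of all tested genes) and 1 Casparian strip marker lower (2.9%). A called interaction was found for 2 and 1 members of these lists (7.73% of all tested genes).

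Iron deficiency genes had 6 of 21 members called lower and 0 higher, against 1.45% of all tested genes called lower. On a WT root 9 were lower (2.9% of all tested genes) and on a cpd root 1 (3.25%), and no member had a called interaction, so a difference between roots was not shown. The alike members were NAS4 (AT1G56430), a nicotianamine synthase gene, at 1.8-fold lower (adjusted p = 0.0121), and MYB72 (AT1G56160), a regulator of the iron response (log2 -2.08 ± 0.52, adjusted p = 0.0271). MYB72 stood at 0 to 2.13 CPM under a WT shoot and at 0 to 0.331 under a cpd shoot, overlaps 829 bases of a gene on the other strand with 222 counts, and lost its call without any 1 of 5 libraries (adjusted p up to 0.067 without WT/cpd replicate 5). The list's called number was 3 without WT/WT replicate 5 and 9 without WT/WT replicate 4.

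Heat shock genes were lower on average, with 8 of 8 of the same sign on each root and a median of -1.07. Called lower were 2, against 1.45% of all tested genes. Members of a list can vary together, so counts of shared sign, here and for the other lists, are descriptions. HSP70 (AT3G12580), a cytosolic chaperone gene, had 110 to 629 CPM under a WT shoot and 67.5 to 255 under a cpd shoot, with wide overlap (2.43-fold lower, adjusted p = 0.0328), and lost its call without any 1 of 9 libraries (adjusted p up to 0.0727 without WT/cpd replicate 5). HSP90.1 (log2 -1.43 ± 0.38, adjusted p = 0.038) fell without meeting the likeness limit, with -1.93 on a WT root and -0.95 on a cpd root. The number called was 0 without WT/WT replicate 2 and 4 without WT/cpd replicate 1. In the dehydration list KIN2 (AT5G15970) rose 1.4-fold (adjusted p = 0.0202), COR15B (AT2G42530) rose (log2 1.21 ± 0.34, adjusted p = 0.0469) and HAB1 (AT1G72770), a phosphatase that restrains abscisic acid signalling, fell 1.18-fold (adjusted p = 0.0239). These were 3 of 22 members, against 3.91% of all tested genes called. COR15B stood under 1 CPM in each library, shares 468 bases with a gene of 22490 counts on the other strand, and lost its call without any 1 of 17 libraries (adjusted p up to 0.0805 without WT/WT replicate 3).

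Single alike members came from several other lists. ACA12 (AT3G63380), a calcium pump gene in the list of touch and calcium genes, fell 1.83-fold (adjusted p = 0.00342), although the medians of that list were 0.64 on a WT root and -1.58 on a cpd root. BBM (AT5G17430), a regulator of the root stem cell niche, fell 1.41-fold (adjusted p = 0.00699), and FAR4 (AT3G44540), a fatty acyl reductase of suberin, 1.37-fold (adjusted p = 0.00412), while the suberin transporter gene ABCG20 (AT3G53510) rose 1.28-fold (adjusted p = 0.0257, and up to 0.053 without WT/WT replicate 3). SPL3 (AT2G33810), a regulator of phase change chosen after its values were seen, rose 2.39-fold from low levels (adjusted p = 0.00454) and overlaps 1046 bases of a gene on the other strand with 186 counts. VSP2 (AT5G24770), ELF4 (AT2G40080) and UPM1 (AT5G40850), of jasmonate response, the clock and sirohaem synthesis, rose 1.43-fold, 1.26-fold and 1.2-fold (adjusted p = 0.0461, 0.0333 and 0.0463). They lost their calls without any 1 of 16, 10 and 15 libraries, with the adjusted p reaching 0.0889 without WT/WT replicate 5, 0.0635 without WT/WT replicate 1 and 0.0853 without WT/cpd replicate 5.

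**Figure D5:**
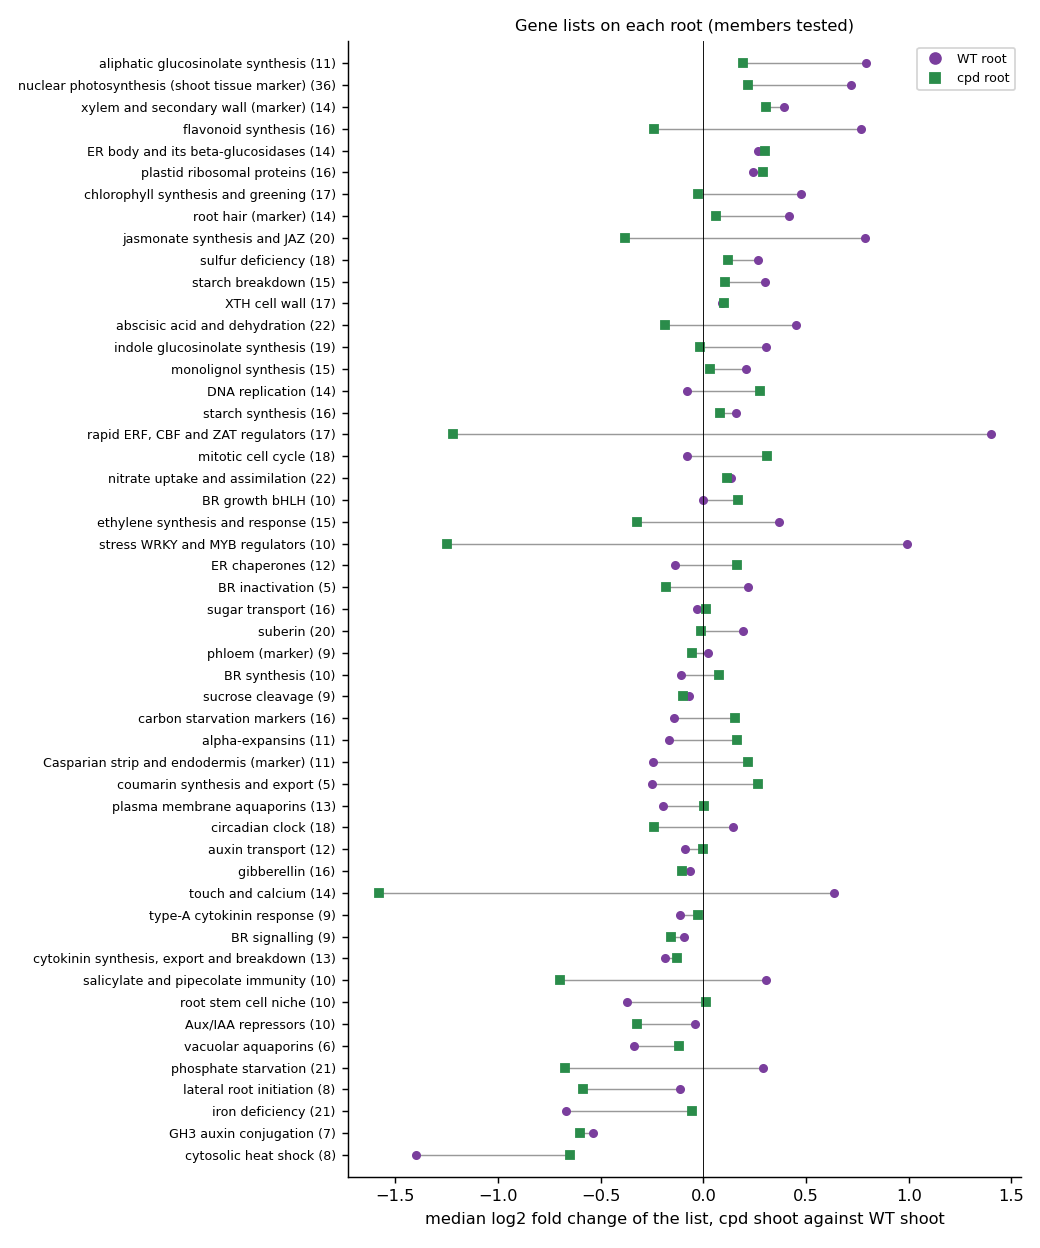
Median log2 fold change (cpd shoot against WT shoot) on a WT root (circles) and on a cpd root (squares) of 51 lists with at least 5 tested members, ordered by the median of the averaged change, with the number tested in brackets. For GH3 auxin conjugation, the ER body, plastid ribosomes and xylem the medians lie close together, while those of rapid ERF, CBF and ZAT regulators lie at 1.4 and -1.22.

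Lists of rapid stress regulators were the counterpart: their changes cancelled in the average. Of 17 rapid ERF, CBF and ZAT regulators 0 were called on average and 0 had the same sign on both roots, with medians of 1.4 on a WT root and -1.22 on a cpd root, and 17 of 17 had a called interaction, against 7.73% of all tested genes. The list of stress WRKY and MYB regulators was similar (0 of 10 of the same sign, medians 0.99 and -1.25, 8 with a called interaction). MYB51 (AT1G18570), a regulator of indole glucosinolates, had log2 fold changes of 0.73 ± 0.31 and -0.97 ± 0.30 on the WT and the cpd root (interaction adjusted p = 0.0213). Flavonoid synthesis had 11 of 16 members called higher on a WT root (6.21% of all tested genes), 0 on a cpd root (1.42%), 0 on average and 6 with a called interaction.

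Of 10 tested brassinosteroid synthesis genes of the root 1 was called, and of 5 inactivation genes 0, against 3.91% of all tested genes. CPD had a log2 fold change of -0.29 ± 0.10 (adjusted p = 0.111), DWF4 (AT3G50660), an early P450 of synthesis, -0.13 ± 0.12 (adjusted p = 0.582), BR6OX2 (AT3G30180), the last, 0.01 ± 0.10 (adjusted p = 0.974), and the inactivating P450 BAS1 (AT2G26710) -0.33 ± 0.10 (adjusted p = 0.0729). The receptor gene BRI1 (AT4G39400) had -0.14 ± 0.07 (adjusted p = 0.313). CYP90D1 (AT3G13730), a P450 of synthesis, rose 1.35-fold (adjusted p = 0.00982), by 0.64 ± 0.11 on a WT root and 0.22 ± 0.11 on a cpd root, and was not alike. Its close relative ROT3 (AT4G36380) had 0.42 ± 0.08 on a WT root and 0.05 ± 0.08 on a cpd root (averaged adjusted p = 0.0554, interaction adjusted p = 0.0386). The signalling list had 0 of 9 members called, with 9 of 9 of the same sign on both roots and a median of -0.12, and the list of growth-promoting bHLH regulators 0 of 10. With 3.91% of all tested genes called, counts this low do not set the brassinosteroid lists apart from other genes.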

How the data were processed

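Whole roots of 20 graft pools were measured by RNA sequencing, with RNeasy Plant Mini Kit extraction and NEBNext Ultra II Directional libraries, per the labels' protocols. STAR and TAIR10 are named in the submitters' processing notes. For the counting tool, annotation release and strand setting nothing is given in these sources. Raw counts per gene, with no normalization, are what the authors deposited, and each column was matched to a sample by its label.

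Gene names and sequences came from the RefSeq assembly TAIR10.1, in which 32548 of 32833 gene codes were found. The test used edgeR 4.0.16 (R 4.3.3): default filter by group, TMM scaling and a robust quasi-likelihood F test with shoot and root as additive terms (17 residual degrees of freedom). The shoot difference on each root and the interaction came from a fit of 1 mean per group. CPM are counts divided by the scaled library size times 1000000, and standard errors come from the F statistic. No 2 libraries of a group agreed within sampling noise (chi-square per degree of freedom over 40 pairs at least 6.00). The labels do not say whether replicates came from separate plates or days, so the spread behind each p-value is that between these pools, which may be technical. Motif shares used the full 250 bases before each gene, and printed windows hold no other annotated gene.

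Genes were named from alike genes whose mean log2 CPM reached 2 and whose shoot groups were apart on each root: the 12 largest rises and falls and the 6 each way with the smallest adjusted p. Up to 4 alike members of each list were added, and always CPD, DWF4, BR6OX2, CYP90D1, ROT3, BAS1 and BRI1. Further named genes carry a remark in the text that their choice followed their values, or are other members of a list. The members, lists and rules were chosen with earlier results of these data known. The fit was tested on simulated counts. Alternatives were DESeq2 1.42.0, DESeq2 size factors, 2 other filters, a replicate block, the averaged contrast of the group means, a non-robust fit, nuclear genes alone, a 1.2-fold threshold, limma 3.58.1 sample weights, other likeness limits and libraries left out.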

Additional observations from a re-analysis of the deposited data

Results flagged for a closer look

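Of 396 combinations of a named gene and a group, 20 (5.05%) had a library whose gap to the nearest of the others passed Dixon's critical value, about the 1 in 20 that chance gives. Of these 6 lay in cpd/cpd replicate 4 and 3 in cpd/WT replicate 2, the libraries that correlated least with their own groups. In cpd/cpd replicate 4, AT4G01390 had 5.68 CPM (nearest other 17.8), LBD16 5.20 (3.68), PIP2-3 171 (109), RBCS1B 39.4 (18.1), CYP83B1 241 (303) and BR6OX2 34.6 (46.0). In cpd/WT replicate 2, AT1G68880 had 23.1 CPM (13.5), AT1G32090 27.1 (41.8) and SPL3 0.662 (1.08).

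High single libraries elsewhere were AT2G43535 at 136 CPM in WT/WT replicate 3, AT1G10380 at 46.0 in WT/cpd replicate 5, GH3.1 at 3.41 in cpd/WT replicate 4, PIP2-5 at 12.9 in WT/cpd replicate 1, SULTR1;1 at 4.76 in cpd/cpd replicate 5, KIN2 at 339 in WT/WT replicate 4 and BR6OX2 at 62.1 in WT/cpd replicate 4. Low single libraries were TIP2-3 at 37.8 CPM in cpd/cpd replicate 5, AMY3 at 43.0 in WT/cpd replicate 5, SEX4 at 8.22 in cpd/WT replicate 3 and CPD at 2.68 in WT/cpd replicate 4. In total counts WT/WT replicate 5 stood apart at 15892095.

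Among the named genes 4 had a shoot difference that differed between roots by the interaction test. On the cpd root minus the WT root it was -0.37 on the log2 scale for ROT3, 1.004 for AT1G55240, -0.95 for GH3.2 and -1.70 for MYB51.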

How the results depend on the processing

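All 91 called named genes kept their sign in 31 alternatives (30 for MYB72, COR15B and TI2, which the stricter filter removed), and 33 kept their call in each. The largest number of lost calls was 23, for PYK10. The number called was 815 and lay between 564 and 1133 with 1 library left out, and the alike genes, 545, between 395 and 754, in both cases without WT/WT replicate 5 and without WT/WT replicate 4. The ranges were 338 to 621 for called rises, 205 to 512 for called falls, 242 to 430 for alike rises and 140 to 324 for alike falls. They were 893 to 2161 called on a WT root, 449 to 1267 on a cpd root, 54 to 126 on each root in the same direction and 1050 to 2407 with a called interaction. Without the least typical libraries there were 496 called falls, 328 alike falls, 2618 calls on a cpd root, 192 on each root and 2968 interactions. limma with sample weights called 2417 (1317 higher, 1100 lower), 1328 alike (699 and 629), 3789 on a WT root, 4346 on a cpd root, 434 on each root and 4215 interactions. Its share of rises among alike genes was 52.6%, against 64.2%. DESeq2 called 1531 (850 higher, 681 lower), 849 alike (373 lower), 1666 on a cpd root and 184 on each root. The averaged contrast gave 480 falls. Against a 1.2-fold change 79 were called (50 higher, 29 lower), 62 alike (41 and 21), 284 on a WT root, 233 on a cpd root, 15 on each root and 599 interactions. A likeness limit of 0.75 left 275 genes (175 and 100), and a call on each root alone 95 (66 and 29). The cause of these shifts was not tested. With the replicate block 591 were called and 421 alike. The numbers did not pair the samples, since 5 of 30 same-numbered pairs had a correlation of deviations over 0.1 (-0.51 to 0.43) and 3 of 20 libraries correlated best with their own number. BR6OX2, which was not called, lay between -0.03031 and 0.09226 with 1 library left out and below 0 in 10 of these 20 fits.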
